A study of Mus musculus with 9 samples.

Results

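Semaphorins, plexins and neuropilins were read in 9 libraries of green fluorescent interneurons picked by hand from mouse cortex at postnatal day 5. Members were chosen by gene symbol alone: classes 3 to 7 of the semaphorins, every plexin and both neuropilins. This gave 31 of the 23319 symbols counted, with 20 semaphorins, 9 plexins and 2 neuropilins. Of the semaphorins 7 are secreted (Sema3a to Sema3g), 12 span the membrane (classes 4, 5 and 6) and 1, Sema7a, is held by a lipid anchor.

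For the 3 Nkx2.1 libraries, Nkx2.1-CreER;Ai47 animals had been treated with tamoxifen at embryonic day 17. The 3 SOM and 3 VIP libraries are of SOM-Cre;Ai47 and VIP-Cre;Ai47 pups, for which no treatment is listed. All mice carried the reporter Ai47, which makes cells fluoresce once Cre has acted, and each library was made from 150 cells of layer 2/3 strips of medial prefrontal and anterior cingulate cortex. In the SOM and VIP lines Cre follows the genes for somatostatin and vasoactive intestinal peptide. In the third line it follows Nkx2.1 and acts only with tamoxifen, so that line and tamoxifen cannot be told apart here. The protocol in the labels names its animals by ChC-GFP, SST-GFP and VIP-GFP, and ChC is the usual short form for chandelier cells, the interneurons that contact the axon initial segment of pyramidal neurons. How many animals gave the cells of a library is not stated in the labels, so a p-value here reflects the spread among these samples alone, and that spread may be technical.

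Semaphorins are guidance proteins that act mostly by repelling growing axons and migrating neurons. Plexins are their signalling receptors. Secreted class 3 semaphorins, Sema3e excepted, need a neuropilin as the binding partner of a class A plexin, whereas membrane-bound semaphorins bind plexins directly. In the embryonic forebrain neuropilins on interneurons from the medial ganglionic eminence (MGE), the source of somatostatin and chandelier cells, help to keep these cells out of the striatum, which makes Sema3a and Sema3f. Interneurons of the VIP line arise in the caudal ganglionic eminence (CGE). After birth, semaphorins and plexins also take part in axon pruning and in the formation of synapses.

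Each library held between 6484488 and 12465997 reads in genes. Levels are given as CPM, the reads of a gene scaled to a common library size by the TMM method, and 3 reads, the floor used here, equal 0.248 to 0.447 CPM. The summed level of 7 GABAergic neuron genes was 3175 to 5736 CPM in Nkx2.1, 3486 to 3917 in SOM and 5151 to 6978 in VIP libraries. Sst stood at 17.7 ± 18.2, 1747 ± 382 and 0.0412 ± 0.0714 CPM and Vip at 1.18 ± 2.05, 0.422 ± 0.732 and 639 ± 202 CPM across the Nkx2.1, SOM and VIP lines (mean ± SD, n = 3 each). Nkx2-1 averaged 0.77 ± 0.649 CPM in the Nkx2.1 line, 0.0384 ± 0.0665 in the SOM line and 0 in the VIP line. Lhx6 stood at 1455 ± 493, 745 ± 119 and 0.0824 ± 0.143 CPM across the Nkx2.1, SOM and VIP lines. In the same order Npy stood at 176 ± 88.5, 4918 ± 1986 and 1.88 ± 3.15 CPM and Prox1 at 0, 0.23 ± 0.399 and 492 ± 177 CPM. Astrocyte markers, all 8 with reads, summed to 2351, 340 and 171 CPM in Nkx2.1 replicates 1, 2 and 3. They summed to 37.7 to 124 CPM in SOM and 233 to 380 CPM in VIP libraries. In VIP replicates 1, 2 and 3 most of the sum was Slc1a2, at 375, 216 and 231 CPM. Oligodendrocyte lineage markers, also 8 of 8 with reads, summed to 261 to 304, 101 to 266 and 1.73 to 112 CPM. Endothelial and mural markers summed to at most 0.114 CPM (Nkx2.1), 17.7 (SOM) and 0.0826 (VIP), with Cldn5, Kdr, Cdh5 and Pdgfrb at 0 in all 9. Of the 8 microglia and macrophage markers 6 had reads, and Cx3cr1 and Tmem119 were at 0 in all 9 libraries. Excitatory neuron markers, 8 of 8 with reads, summed to 0 to 117, 1.61 to 9.84 and 3.3 to 157 CPM. What part these other cell types had in the levels of the family was not tested.

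Of the 31 members, 27 had a read in some library and 10 had at least 10 reads in all 9: the plexins Plxna1, Plxna2, Plxna3, Plxna4, Plxnb2 and Plxnc1 and the transmembrane semaphorins Sema4g, Sema5b, Sema6a and Sema6c. The filter on low counts kept 25 members for testing, and these are not all members, since a gene may pass through the line where it is high. Nrp2 and Plxnd1 had reads but were not tested. The 4 members without a read were Plxnb3, Sema3b, Sema3f and Sema3g. Per kilobase of annotated exon, the most abundant semaphorins over the 9 libraries were Sema6a at 24.3 ± 13.7 CPM per kilobase, Sema5b at 18.9 ± 31.5 and Sema3a at 11.2 ± 12.1 (mean ± SD, n = 9). The most abundant plexins were Plxna1 at 19.9 ± 19.7, Plxna3 at 19.8 ± 14.8 and Plxna2 at 18.6 ± 14.4 CPM per kilobase. These SDs overlap and also hold the differences between lines, so the order of neighbours is a description only. The place of Sema5b comes from the VIP line, with 1.48, 1.58 and 53.6 CPM per kilobase in the Nkx2.1, SOM and VIP lines. Nrp1 stood at 10.2 ± 11.3 and Nrp2 at 0.144 ± 0.297 CPM per kilobase.

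**Figure D1:**
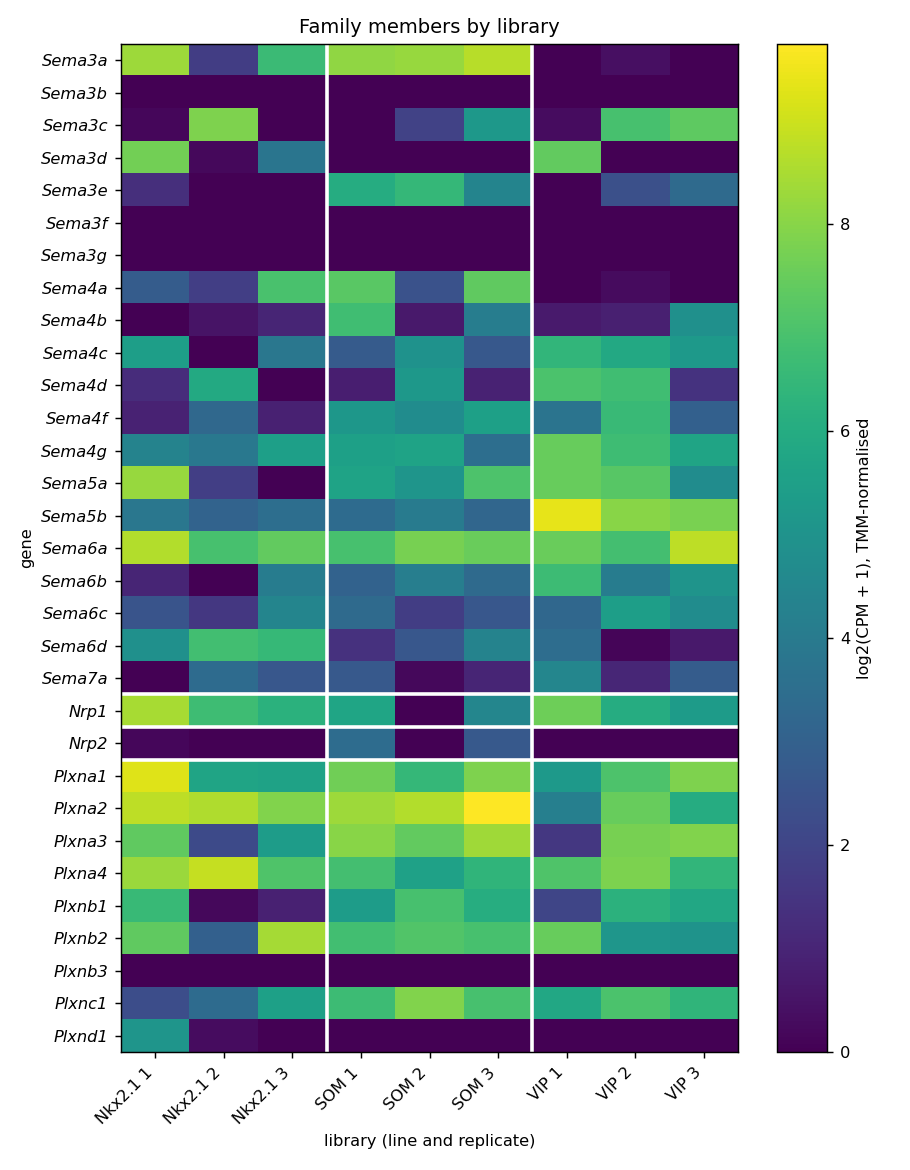
Heat map of log2(CPM + 1) for the 31 members (rows, grouped as semaphorins, neuropilins and plexins) in the 9 libraries (columns, grouped by line). Sema5b is bright only in the 3 VIP columns and Sema3a is dark in them, while 4 rows have 0 reads in every library.

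The lines had a like total of the family, with overlapping ranges, but not a like make-up of ligands. The summed level of all 31 members was 2201 ± 1122 CPM in Nkx2.1, 2319 ± 484 in SOM and 2102 ± 239.9 in VIP libraries (SD, n = 3 each). Secreted semaphorins summed to 519, 233 and 111 CPM in Nkx2.1, 343, 388 and 465 CPM in SOM and 169, 123 and 167 CPM in VIP libraries. SOM libraries were all above VIP libraries, and the Nkx2.1 libraries overlapped both. That order rests on Sema3a: without it, in sums made after the data were seen, the class stood at 202, 231 and 12.9 CPM in Nkx2.1, 64.3, 91.9 and 55.1 in SOM and 169, 123 and 167 in VIP libraries, with every SOM library below every VIP library. Membrane-bound semaphorins summed to 811, 333 and 491 CPM in Nkx2.1, 543, 429.7 and 596 in SOM and 1559.6, 935 and 873 in VIP libraries, with every VIP library above the other 6. Without Sema5b they summed to 798, 325 and 480 CPM in Nkx2.1, 533, 414 and 588 in SOM and 892, 682 and 653 in VIP libraries, where Nkx2.1 replicate 1 overlapped the VIP libraries and SOM did not. Plexins summed to 1812, 918 and 845 CPM in Nkx2.1, 1132, 1184 and 1788 in SOM and 422, 977 and 784 in VIP libraries, and only SOM and VIP did not overlap. Since these are bulk libraries, fewer cells expressing a gene and less RNA per cell cannot be told apart. The sums are a description with no test, since the rule on symbols was itself chosen with results of these data known.

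**Figure D2:**
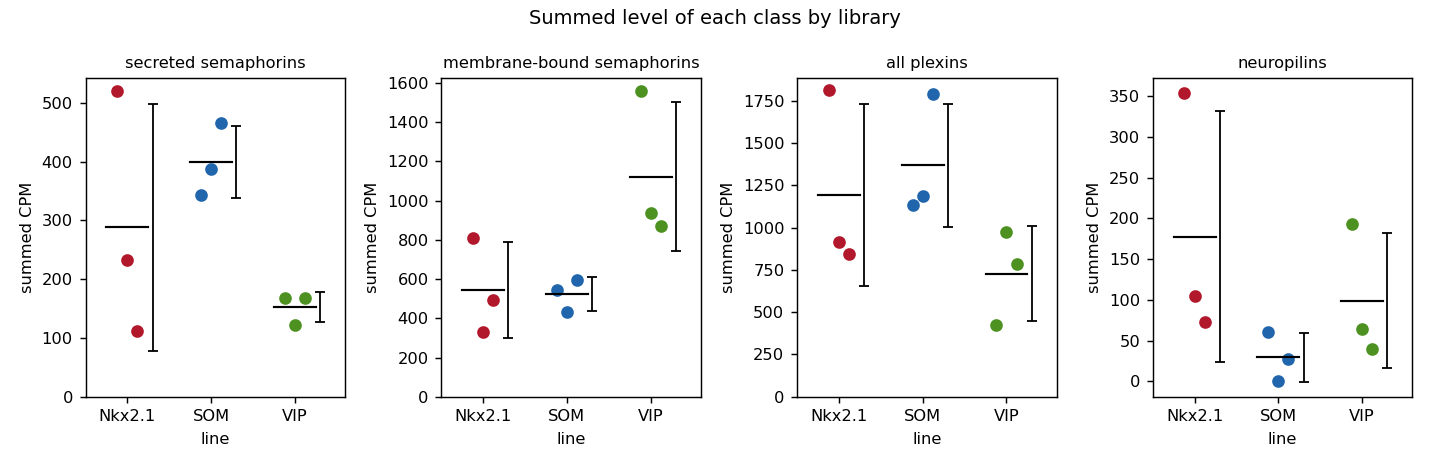
Summed CPM of the 7 secreted semaphorins, the 13 membrane-bound semaphorins, the 9 plexins and the 2 neuropilins, 1 point per library, with a line at the mean and a bar of ± SD (n = 3 per line). Membrane-bound semaphorins, Sema5b included, are highest in the VIP libraries (873 to 1559.6 CPM), and secreted semaphorins are at 123 to 169 CPM there against 343 to 465 CPM in SOM libraries.

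Among the membrane-bound ligands Sema5b was the only one called by edgeR in a comparison with the VIP line. It encodes a transmembrane semaphorin with thrombospondin repeats, known in mouse retina to repel neurites through Plxna1 and Plxna3. Sema5b (chromosome 16, 35541145 to 35664732, plus strand, GRCm38) measured 13.4, 7.67 and 10.4 CPM in Nkx2.1, 9.62, 15.7 and 8.18 CPM in SOM and 667, 253 and 219 CPM in VIP libraries. The 6 libraries of both other lines lay between 7.67 and 15.7 CPM, and every VIP library was far above them. The mean was 36.2-fold lower in Nkx2.1 than in VIP (log2 -5.18 ± 0.83 SE, edgeR adjusted p = 0.0411) and 34-fold lower in SOM than in VIP libraries (log2 -5.09 ± 0.83, edgeR adjusted p = 0.0659). Nkx2.1 and SOM libraries had 10.497 ± 2.86 and 11.2 ± 3.97 CPM (log2 -0.087 ± 0.70, edgeR adjusted p = 0.995). Both differences from VIP rest on the same VIP libraries. In 1 test of any difference among the 3 lines, Sema5b was the only member called (edgeR adjusted p = 0.0173), where 0.336% of the 10728 genes tested were called. The pairwise call did not hold in any fit that left out 1 library (adjusted p = 0.0555 to 0.27), and the 3-line call was lost on leaving out any 1 SOM or VIP library. The fold stayed between log2 -5.45 and -4.43, the smallest without VIP replicate 1.

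The promoter windows of Sema5b, the called member, and of Sema3a, which had the opposite pattern, are shown as a description. Each runs from 250 bases before to 50 after the RefSeq gene start (GRCm38.p6, plus strand), with CpG dinucleotides in capitals, at chr16:35541112-35541411 for Sema5b and chr5:13396534-13396833 for Sema3a. Neither window ends at the gene start of GENCODE M21: the Sema5b window spans it, and the Sema3a window lies wholly inside the gene, downstream of an earlier start.
Sema5b: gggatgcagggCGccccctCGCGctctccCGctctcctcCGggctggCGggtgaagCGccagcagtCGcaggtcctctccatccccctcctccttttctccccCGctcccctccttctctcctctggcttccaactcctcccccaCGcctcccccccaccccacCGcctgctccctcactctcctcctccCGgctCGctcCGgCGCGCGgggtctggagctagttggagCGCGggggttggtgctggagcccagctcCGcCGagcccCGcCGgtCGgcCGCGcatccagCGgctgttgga
Sema3a: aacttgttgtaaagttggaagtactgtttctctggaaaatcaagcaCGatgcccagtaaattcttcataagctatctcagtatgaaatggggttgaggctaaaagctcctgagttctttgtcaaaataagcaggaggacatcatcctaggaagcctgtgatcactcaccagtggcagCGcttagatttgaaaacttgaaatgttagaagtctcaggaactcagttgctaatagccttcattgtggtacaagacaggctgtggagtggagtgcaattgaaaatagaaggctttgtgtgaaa
The Sema5b window has 27 CpG dinucleotides and 73% G and C, against 2 and 41.3% for Sema3a. Among the 32851 promoter windows of the mouse RefSeq set the medians are 7 CpG dinucleotides and 52.7%. At least 27 were found in 15.5% of them, and at most 2 in 23.3%. Neither window holds TAATTA (a core of homeodomain sites), CAGCTG (an E-box) or CAAGTG (a core of Nkx2 sites) on either strand, letters that 5.29%, 16.3% and 13.6% of all windows hold. Absence of these letters says nothing of factors binding elsewhere.

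The other abundant membrane-bound ligand, Sema6a, did not separate the lines. This ligand of Plxna2 and Plxna4 stood at 391, 118 and 166 CPM in Nkx2.1, 117, 211 and 184 CPM in SOM and 179.98, 111 and 439 CPM in VIP libraries. The ranges overlapped in all 3 comparisons, and the fitted differences were log2 0.40 ± 0.67, -0.11 ± 0.67 and -0.51 ± 0.67 for Nkx2.1 over SOM, Nkx2.1 over VIP and SOM over VIP (edgeR adjusted p = 0.964, 0.972 and 1.00).

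Sema3a was the secreted ligand that differed most between the MGE lines and the VIP line. It encodes the classical repellent of axons that signals through Nrp1 and class A plexins. Sema3a (chromosome 5, 13125414 to 13602565, plus strand) had 2775, 28 and 1176 reads in Nkx2.1, 2609, 1986 and 3560 in SOM and 0, 3 and 0 in VIP libraries. In CPM this was 317, 2.39 and 98.2 in Nkx2.1, 279, 296 and 410 in SOM and 0, 0.312 and 0 in VIP libraries. Every Nkx2.1 and SOM library lay above every VIP library, although Nkx2.1 replicate 2 was far below the other 5. The ratio of pooled reads was 1218 for Nkx2.1 over VIP (95% counting interval 417 to 5909.9) and 3276 for SOM over VIP (1120.4 to 15887). Neither was called, at edgeR adjusted p = 0.0896 (log2 10.23 ± 2.00) and 0.103 (log2 11.47 ± 2.08). Without Nkx2.1 replicate 2 the edgeR adjusted p were 0.0169 and 0.0208. Over the edgeR alternatives they ranged up to 0.282 and 0.454, while DESeq2 gave 7e-09 and 8.5e-11. The fitted log2 values of a gene with so few reads in a line depend on the prior count, and the counting intervals cover counting error only.

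Sema4a showed a like split at lower precision. It encodes a transmembrane semaphorin that binds class B plexins. Sema4a (chromosome 3, 88435959 to 88461182, minus strand) had 53, 29 and 1477 reads in Nkx2.1, 1399, 30 and 1413 in SOM and 0, 2 and 0 in VIP libraries. Both MGE lines were above VIP without overlap, but in each of them some libraries had 53 reads or fewer and others 1399 or more. The ratio of pooled reads was 716 for Nkx2.1 over VIP (198 to 5917) and 1712 for SOM over VIP (474 to 14146), with edgeR adjusted p = 0.177 and 0.373 (log2 9.07 ± 2.59 and 10.33 ± 2.71). Oligodendrocyte lineage markers summed to 261 to 304 CPM in Nkx2.1, 101 to 266 in SOM and 1.73 to 112 in VIP libraries. For these sums the Nkx2.1 range lay above the VIP range, while the SOM and VIP ranges overlapped. The part of these markers in the Sema4a difference was not tested.

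Sema3a and 3 other secreted semaphorins, Sema3c, Sema3d and Sema3e, lie within 5.35 megabases of chromosome 5 on the plus strand, and each was read in a different set of libraries. Sema3e, the ligand that binds Plxnd1 with no need of a neuropilin, had 13, 0 and 0 reads in Nkx2.1, 601, 597 and 173 in SOM and 0, 40 and 112 in VIP libraries. SOM libraries were the highest for it without overlap, at 0.496 ± 0.859 CPM in Nkx2.1, 57.7 ± 35.0 in SOM and 4.47 ± 4.63 in VIP libraries. The difference of Nkx2.1 from SOM was 116-fold (log2 -6.84 ± 2.90, edgeR unadjusted p = 0.0393, adjusted p = 0.418).

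Sema3d, a secreted ligand of neuropilins, had 1750, 2 and 155 reads in Nkx2.1, 0 in all SOM libraries and 1362, 0 and 0 in VIP libraries. Most of its reads thus came from Nkx2.1 replicate 1 and VIP replicate 1. In SOM, 0 reads allow up to 0.321 to 0.447 CPM by counting error alone. From reads pooled over each line, with 3 reads over the SOM libraries as the floor, Sema3d was at least 485-fold higher in Nkx2.1 than in SOM and at least 377-fold lower in SOM than in VIP libraries (edgeR unadjusted p = 0.0339 and 0.0363, adjusted p = 0.403 and 0.647). The SOM against VIP difference rests on VIP replicate 1 alone: without it neither line had a read. Sema3c, which can act through Nrp1 or Nrp2, had 1, 2705 and 0 reads in Nkx2.1, 0, 19 and 305 in SOM and 2, 1138 and 1914 in VIP libraries. It overlapped in all 3 comparisons.

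**Figure D3:**
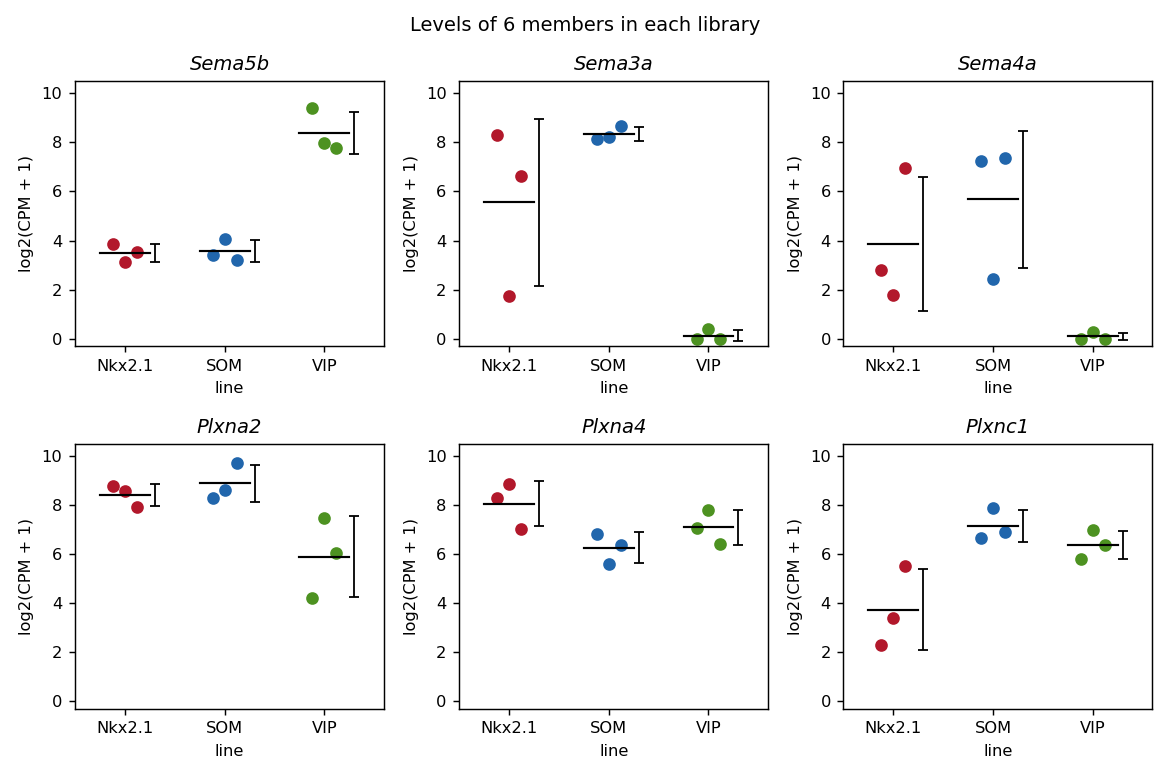
Level of Sema5b, Sema3a, Sema4a, Plxna2, Plxna4 and Plxnc1 as log2(CPM + 1), 1 point per library, with a line at the mean and a bar of ± SD on this scale (n = 3 per line). Sema5b is high in VIP libraries, Sema3a and Sema4a are near 0 there, and Plxnc1 is lowest in Nkx2.1 libraries.

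Of the remaining class 4 semaphorins, Sema4b had an edgeR unadjusted p under 0.05 between Nkx2.1 and SOM libraries and was called by DESeq2. Sema4b had 0, 5 and 12 reads in Nkx2.1, 1008, 4 and 143 in SOM and 5, 8 and 348 in VIP libraries. SOM replicate 2 overlapped the Nkx2.1 libraries in CPM (0.597 against 0 to 1.00). The means were 0.476 ± 0.503 CPM in Nkx2.1 and 41.6 ± 57.9 CPM in SOM libraries (log2 -6.40 ± 2.80, edgeR unadjusted p = 0.0444, adjusted p = 0.432). Sema4c, Sema4d, Sema4f and Sema4g, transmembrane ligands of which Sema4d acts on Plxnb1 and Sema4c on Plxnb2, averaged 18.9 ± 22.2, 20.3 ± 33.9, 3.48 ± 4.52 and 25.8 ± 16.3 CPM in Nkx2.1 libraries. In SOM libraries they averaged 13.99 ± 14.4, 12.4 ± 20.01, 35.4 ± 10.1 and 34.5 ± 21.02 CPM, and in VIP libraries 59.7 ± 23.3, 77.5 ± 66.4, 37.96 ± 49.2 and 109.6 ± 62.8 CPM. Sema4c was lower in every SOM library than in every VIP library, and Sema4g lower in every Nkx2.1 and SOM library than in every VIP library, with edgeR adjusted p = 0.442 to 1.00 for these comparisons.

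Among the last transmembrane ligands, Sema6d, which binds Plxna1, was highest in the Nkx2.1 line. It stood at 28.6, 108 and 89.9 CPM in Nkx2.1, 1.60, 5.22 and 19.2 CPM in SOM and 10.1, 0.104 and 0.578 CPM in VIP libraries. No Nkx2.1 library overlapped another line, and the differences were 8.69-fold from SOM and 20.9-fold from VIP (edgeR adjusted p = 0.622 and 0.335). Sema6b, a ligand of Plxna4, stood at 5.71 ± 9.02, 11.2 ± 5.11 and 49.5 ± 44.7 CPM and Sema6c at 9.02 ± 9.86, 5.63 ± 3.42 and 25.6 ± 17.2 CPM across the Nkx2.1, SOM and VIP lines. Sema5a, the relative of Sema5b, had 2635, 29 and 0 reads in Nkx2.1, 453, 222 and 1111 in SOM and 1417, 1423 and 308 in VIP libraries. Nkx2.1 replicate 1, the library with 2351 CPM of astrocyte markers, had the most reads of Sema5a, Sema3d, Plxnd1, Plxna1 and Nrp1, and the part of these markers in those levels was not tested. Sema7a, which binds Plxnc1 and integrins, was low throughout, at 4.99 ± 4.87, 2.28 ± 2.96 and 9.5 ± 10.51 CPM.

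On the receptor side Plxna2 was the plexin that lay above the VIP line in both MGE lines without overlap. Plxna2 (chromosome 1, 194618218 to 194816869, plus strand), a receptor of Sema6a and, with neuropilins, of class 3 semaphorins, measured 439, 379.6 and 239 CPM in Nkx2.1, 315, 392 and 851 CPM in SOM and 17.3, 176 and 64.4 CPM in VIP libraries. All 6 MGE libraries were above all 3 VIP libraries. The mean was 4.11-fold higher in Nkx2.1 than in VIP (log2 2.04 ± 0.77, edgeR unadjusted p = 0.0236, adjusted p = 0.262) and 6.05-fold higher in SOM than in VIP (log2 2.597 ± 0.78, edgeR unadjusted p = 0.00758, adjusted p = 0.429). Without VIP replicate 2 these differences were log2 3.17 and 3.69.

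Plxna4 and Plxnc1 differed in opposite directions between Nkx2.1 and SOM libraries, neither called by edgeR, while DESeq2 called Plxnc1. Plxna4, the class A plexin that pairs with Nrp1 for Sema3a and binds Sema6a alone, stood at 311, 467 and 131 CPM in Nkx2.1, 113, 46.8 and 81.6 CPM in SOM and 132, 225 and 83.5 CPM in VIP libraries. It was 3.75-fold higher in Nkx2.1 than in SOM with no overlap (log2 1.91 ± 0.70, edgeR unadjusted p = 0.0203, adjusted p = 0.362). Plxnc1, the receptor of Sema7a, stood at 3.89, 9.55 and 44.99 CPM in Nkx2.1, 100.3, 237 and 118 CPM in SOM and 55.5, 124 and 81.0 CPM in VIP libraries. Every Nkx2.1 library was below the other 6, and the mean was 7.78-fold lower than in SOM (log2 -2.96 ± 1.10, edgeR unadjusted p = 0.0225, adjusted p = 0.367). Without Nkx2.1 replicate 3 the difference was log2 -4.49.

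The other class A plexins, Plxna1 and Plxna3, varied widely among the libraries of the Nkx2.1 line and of the VIP line. Plxna1 stood at 608, 50.9 and 47.5 CPM in Nkx2.1, 198, 87.8 and 228 CPM in SOM and 37.3, 130.1 and 232 CPM in VIP libraries. Plxna3, which pairs mainly with Nrp2 for Sema3f, stood at 163, 3.50 and 40.2 CPM in Nkx2.1, 253, 166 and 325 CPM in SOM and 1.98, 212 and 236 CPM in VIP libraries. For Plxna3 all Nkx2.1 libraries were below all SOM libraries, while VIP replicate 1 and Nkx2.1 replicate 2 were at under 4 CPM (edgeR adjusted p = 0.788 for Nkx2.1 against SOM). Of the class B plexins, receptors of class 4 semaphorins, Plxnb1 stood at 31.1 ± 53.0, 74.8 ± 39.4 and 44.99 ± 37.8 CPM and Plxnb2 at 170.1 ± 167, 122 ± 13.4 and 79.7 ± 82.1 CPM across the Nkx2.1, SOM and VIP lines. Plxnd1, the receptor of Sema3e, had 289 and 3 reads in Nkx2.1 replicates 1 and 2 and 0 in the other 7 libraries.

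Neuropilins were represented by Nrp1 almost alone. Nrp1 (chromosome 8, 128358604 to 128503363, plus strand) stood at 354, 105 and 72.6 CPM in Nkx2.1, 51.2, 0 and 21.2 CPM in SOM and 193, 63.8 and 39.6 CPM in VIP libraries. Every Nkx2.1 library was above every SOM library, and SOM replicate 2 had 0 reads, which allows up to 0.447 CPM by counting error alone. The fitted difference was log2 2.87 ± 1.65 (edgeR adjusted p = 0.584). Nrp2 had 1, 0 and 0 reads in Nkx2.1, 91, 0 and 48 in SOM and 0 in the VIP libraries, at most 9.73 CPM.

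Set beside each other by library, ligands and their receptors did not always meet. At a minimum of 10 reads for each, Sema3a and Nrp1 were found together in 3 Nkx2.1 libraries, 2 of SOM and 0 of VIP, and Sema3a and Plxna4 in 3, 3 and 0. SOM replicate 2 had 1986 Sema3a reads and no read of either neuropilin. Sema5b and its receptors Plxna1 and Plxna3 were read together in all 9 libraries, as were Sema6a and its receptors Plxna2 and Plxna4. Sema3e and Plxnd1 were read together in 1 library only, Nkx2.1 replicate 1, with 13 and 289 reads. Sema4d and Plxnb1 met in 1 Nkx2.1, 1 SOM and 3 VIP libraries. These counts describe RNA in pools of cells, and a ligand may act on receptors of other cells.

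Across the 25 tested members, Nkx2.1 against SOM had 0 called higher and 0 lower (0.0652% and 0.028% of all 10728 tested genes), with 2 higher and 3 lower at an edgeR unadjusted p under 0.05 (2.92% and 8.38% of all). Plxna4 and Sema3d were the 2, and Plxnc1, Sema3e and Sema4b the 3. Nkx2.1 against VIP had 0 higher and 1 lower, Sema5b (0.177% and 0.13% of all), with 3 higher (Plxna2, Sema3a and Sema4a) and 1 lower at the unadjusted p (5.73% and 9.43%). SOM against VIP had 0 in either direction (0.0559% and 0.0186% of all), with the same 3 higher and 2 lower (Sema3d and Sema5b) at the unadjusted p (4.63% and 2.36%). Both comparisons with VIP share the VIP libraries. The median log2 difference of the tested members was 0.40 for Nkx2.1 against SOM, -0.53 for Nkx2.1 against VIP and -0.51 for SOM against VIP, beside -0.0073, 0.0028 and -0.0037 for all tested genes.

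The DESeq2 Wald test called more members than edgeR. For Nkx2.1 against SOM it called 1 higher (Sema3d) and 3 lower (Plxnc1, Sema3e and Sema4b), where it called 1.81% and 5.91% of all genes. For Nkx2.1 against VIP it called 3 higher (Sema3a, Sema4a and Sema6d) and 1 lower (Sema5b), beside 4.65% and 8.05%. For SOM against VIP it called 2 higher (Sema3a and Sema4a) and 2 lower (Sema3d and Sema5b), beside 2.47% and 1.37%. For any difference among the lines the DESeq2 likelihood ratio test called 3 (Sema3a, Sema4a and Sema5b), beside 7.08%.

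**Figure D4:**
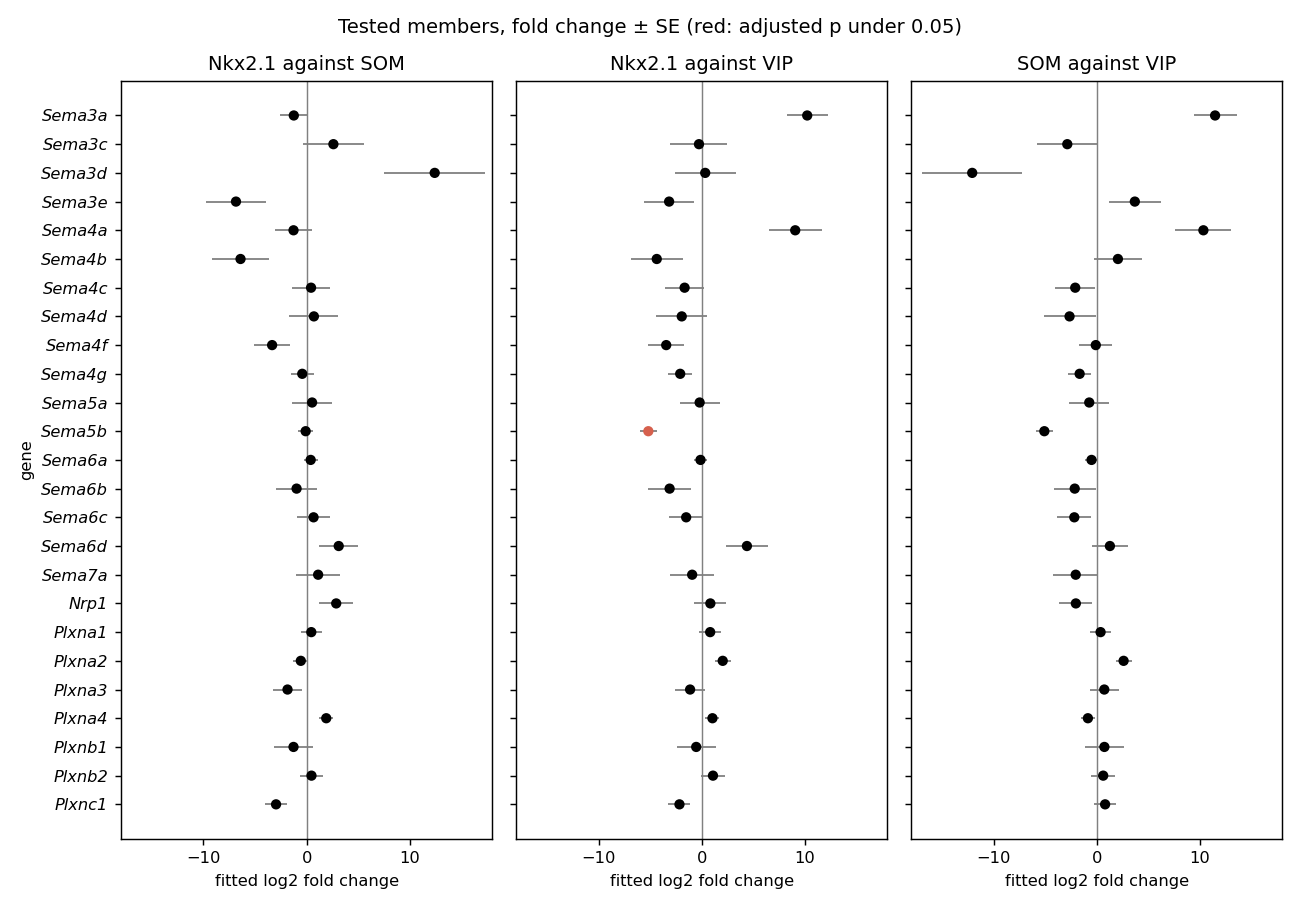
Fitted log2 fold change ± SE (edgeR, back-computed from the F statistic) of the 25 tested members in the 3 comparisons, with positive values higher in the line named before "against". The point for Sema5b in Nkx2.1 against VIP (log2 -5.18) is the only one past the adjusted threshold of 0.05, and Sema3a and Sema4a lie far to the right in both comparisons with VIP.

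Counting libraries that do not overlap, 4 members were higher (Nrp1, Plxna4, Sema3d and Sema6d) and 4 lower (Plxna3, Plxnc1, Sema3e and Sema4f) in Nkx2.1 than in SOM, where 5.9% and 14% of all tested genes did not overlap. In Nkx2.1 against VIP there were 4 higher (Plxna2, Sema3a, Sema4a and Sema6d) and 4 lower (Plxnc1, Sema4g, Sema5b and Sema6b), beside 7.31% and 12.8% of all. In SOM against VIP there were 4 higher (Plxna2, Sema3a, Sema3e and Sema4a) and 3 lower (Sema4c, Sema4g and Sema5b), beside 10.9% and 9%. Members with 100 or more reads in a library and 3 or fewer in another of the same line numbered 8 of 25 in Nkx2.1 (32%, against 31.6% of all tested genes), 2 in SOM (8%, against 12.3%) and 3 in VIP (12%, against 21.8%). Such swings between replicates were thus as frequent among members as among all genes in the Nkx2.1 line.

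Genes of the semaphorin pathway outside the family had 0 edgeR calls in the 3 comparisons, where 0.0186% to 0.177% of all tested genes were called in a direction, so that 0 is not a result about these genes. Of all tested genes, 2.36% to 9.43% had an edgeR unadjusted p under 0.05 in a direction of a comparison. Of co-receptors and alternative receptors 7 were tested. At an edgeR unadjusted p under 0.05, Ptk7 was higher and L1cam lower in Nkx2.1 than in SOM, Chl1 and Ptk7 were higher in Nkx2.1 than in VIP, and L1cam and Chl1 were higher in SOM than in VIP. The most abundant, the adhesion genes Chl1, L1cam and Nrcam, which join neuropilins in receptor complexes, stood at 1788 ± 442, 303 ± 23.9 and 291 ± 234 CPM in Nkx2.1, 1927 ± 294, 751 ± 182 and 349 ± 59.7 CPM in SOM and 884 ± 259, 421 ± 117 and 319 ± 61.0 CPM in VIP libraries. For these 7 the median log2 difference was -0.11 for Nkx2.1 against SOM, 1.02 for Nkx2.1 against VIP and 0.84 for SOM against VIP.

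Of GTPases acting downstream of plexins and of their regulators, 18 were tested and 0 called, with Farp1, Rnd3 and Pak1 the most abundant. The share of all tested genes at the unadjusted p, 2.36% to 9.43% in a direction, also stands beside this list and the next. At the unadjusted p Farp1 was higher and Rras2 lower in Nkx2.1 than in SOM, Rnd3 higher and Rras2 lower in Nkx2.1 than in VIP, and Rnd3 higher in SOM than in VIP. Farp1, an exchange factor that binds class A plexins, averaged 687 ± 385, 302 ± 56.8 and 463 ± 144 CPM, Rnd3, a small GTPase, 407 ± 246, 484 ± 202 and 88.8 ± 56.1 CPM, and the Rac effector Pak1 287 ± 163, 286 ± 103 and 232 ± 10.9 CPM across the Nkx2.1, SOM and VIP lines. Of kinases, collapsin response mediators (CRMPs) and Mical genes, 16 were tested and 0 called. At the unadjusted p Dpysl2 and Dpysl5 were lower in Nkx2.1 than in either other line (Dpysl2 against VIP, log2 -0.95 ± 0.22, edgeR adjusted p = 0.131), Mical2, Mical3 and Ranbp9 were higher in Nkx2.1 than in VIP, and Mical2 and Mical3 were higher in SOM than in VIP. The most abundant were the mediators Crmp1 at 1257 ± 457, 1737 ± 186 and 1481 ± 234 CPM, Dpysl2 at 899.9 ± 83.8, 1603 ± 265 and 1739.97 ± 119 CPM and Dpysl5 at 395 ± 248, 1394 ± 259.8 and 1254 ± 159.7 CPM. The medians of the log2 differences were 0.17, 0.47 and 0.36 for the GTPase list and -0.43, -0.030 and 0.35 for the kinase and CRMP list, in Nkx2.1 over SOM, Nkx2.1 over VIP and SOM over VIP.

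The 4 members without a read fall into 2 kinds by position. Sema3b (chromosome 9, 107597674 to 107609229) and Sema3f (chromosome 9, 107681500 to 107710475), both secreted ligands, lie on the minus strand within a stretch from 21294275 to 124476898 in which none of 461 consecutive protein-coding genes of that strand had a read. Of all 522 counted protein-coding genes on the minus strand of chromosome 9, 93.1% had 0 reads, against 33.7% on its plus strand. Plxnb1 and Sema7a, members on the plus strand of the same chromosome, had 3992 and 497 reads. The zeros of Sema3b and Sema3f therefore cannot be read as absence of their RNA. Sema3g lies on chromosome 14 (31217860 to 31230352, plus strand) and the class B plexin Plxnb3 on chromosome X (73757090 to 73772514, plus strand). Both had neighbours on their strand with reads on both sides. Their 0 reads allow up to 0.248 to 0.447 CPM in a library by counting error alone. The genes overlapping a member in the annotation and counted, Mir1903 at Nrp1 and 4930517E11Rik and 4930583P06Rik at Sema6d, had 0 reads.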

How the data were processed

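The authors deposited 9 tables of raw read counts per gene symbol, 1 per library. Per the submitters' processing notes, TopHat2 2.0.9, DESeq2 and the build mm10 were used, without a stated role or sequence. What counted the reads, and whether by strand, was not given in the sources used here. The 5 entries that name no gene held 83.6% to 85.2% of each table (64.5% to 68.0% for non-unique alignments) and were left out. Here edgeR 4.0.16 in R 4.3.3 fitted all 9 libraries with group as the only term (TMM, filterByExpr at a minimum count of 10, quasi-likelihood F test, 10728 genes tested, 6 residual degrees of freedom, common biological coefficient of variation 1.40), with Benjamini-Hochberg adjustment over all tested genes and a threshold of 0.05. The script was tested on simulated counts that vary less between replicates than these data, so that test says nothing of error rates here. Folds are ratios of mean CPM, bounds over 3 pooled reads, or ratios of pooled reads with exact 95% intervals (counting error only). Exon lengths and positions are from GENCODE M21 (GRCm38) and promoters from RefSeq, which held 26 of the 31 members. Values in every library are given for members called or under an unadjusted p of 0.05 in a test, the 3 most abundant semaphorins and plexins per kilobase and both neuropilins; Sema3c, Sema5a, Sema6d and Plxnd1 were added after their values were seen. Pathway genes are named where called or as the 3 most abundant of their list; those named for an unadjusted p were added after their values were seen. The rule on symbols that gave the members, and the lists, were chosen with earlier results of these data known. DESeq2 1.42.0, its size factors, no filter, 2-group fits, a replicate block and leaving out each library were the alternatives. Log CPM of replicates correlated at 0.485 to 0.506 in Nkx2.1, 0.667 to 0.715 in SOM and 0.575 to 0.646 in VIP libraries, across genes. The summed level of the microglia and macrophage markers is not reported here.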

Additional observations from a re-analysis of the deposited data

How the results depend on the processing

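No member was called in Nkx2.1 against SOM, in either direction, under any alternative but the DESeq2 test (1 higher, 3 lower). The lower call in Nkx2.1 against VIP, Sema5b, was kept with DESeq2 size factors, with no filter and with the DESeq2 test, and was lost in the fit of only these 2 groups (0 members, adjusted p = 0.0741) and in each of the 9 fits without a library (0 to 0). Higher members in that comparison numbered 1 with no filter, 3 with DESeq2 and 0 to 1 without a library, the 1 being Sema3a without Nkx2.1 replicate 2 (adjusted p = 0.0169). In SOM against VIP, higher members numbered 1 with no filter, 2 with DESeq2, 1 with only the 2 groups and 0 to 1 without a library. Lower members there numbered 2 with DESeq2, 1 with only the 2 groups and 0 to 1 without a library. In both directions the 1 came without Nkx2.1 replicate 2. Any difference among the lines was called for 3 members with DESeq2 and for 0 to 2 without a library. The cause of these changes was not tested. The labels do not state that replicate numbers pair the libraries. Deviations from line means correlated at -0.033 to 0.064 over the 9 same-numbered pairs and -0.065 to 0.033 over the 18 other pairs. With so few libraries per line these correlations cannot decide whether libraries were paired. With the replicate number as a block, the lower call in Nkx2.1 against VIP and the 3-line call went to 0 (Sema5b log2 -5.05, adjusted p = 0.139) and no other count of members changed. Folds with an edgeR unadjusted p under 0.05 kept their sign under every alternative that gave a value. Sema3d had none in the fits of only 2 groups for Nkx2.1 against SOM and for SOM against VIP. It also had none in SOM against VIP without VIP replicate 1. Of 854 alternative values for the other folds, 43 changed sign, among them Nkx2.1 against SOM for Sema5b (log2 0.10 when Nkx2.1 replicate 2 was left out and 0.24 when SOM replicate 2 was) and Sema6a (-0.26 without Nkx2.1 replicate 1). Over all tested genes, higher and lower calls numbered 7 and 3, 19 and 14 and 6 and 2 in the 3 comparisons in the order above, and 3 and 1, 8 and 3 and 3 and 1 with the block. Depth limits what a zero shows to 0.248 to 0.447 CPM by counting error alone, and swings between replicates of a line can be larger.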
